A study of Rattus norvegicus with 10 samples.

Results

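The genes described here build the autophagosome, degrade its cargo in the lysosome and acidify that lysosome. They were the genes whose symbol begins with Atp6v or Atp6ap (the proton pump), *Lamp1* and *Lamp2*, the cathepsins (Cts and 1 letter), the Atg genes, *Becn1*, the Map1lc3 and Gabarap genes, *Sqstm1*, *Ulk1* and *Ulk2*. The rule uses symbols and no signal value, but it was set with earlier results of these data known. In all, 65 genes with 94 probe sets met it, of 14217 genes with 20832 probe sets that carry a single gene symbol. Each gene was read from its brightest probe set, by mean log2 signal.

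The rats were male Wistar, an outbred stock, bought at 5 weeks of age, and all ate the same powdered diet after a period of free feeding that set their usual intake. The groups compared received calorie restriction (CR) of 5, 10, 20 or 30% for 1 week, against a control group given its full usual intake for 1 week, and all were killed after a 16 h fast. RNA of 5 rats was pooled in each group, and 1 Affymetrix Rat Genome array was hybridised per pool, so the 4 CR arrays were set together against 1 control array. The labels give the tissue as brain, and the methods as the hypothalamus area. *Pmch* and *Hcrt*, 2 neuropeptides of the lateral hypothalamus, had signals of 8130.4 to 8942.1 and of 1907.7 to 2422.5 on the CR arrays, against 7157.0 and 1807.5 on the control array, while *Pomc*, a peptide precursor of the arcuate nucleus, lay between 4.9 and 14.8 on the CR arrays, against 2.6 on the control array.

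Autophagy begins when the Ulk1 kinase complex and the Beclin 1 lipid kinase complex start a cup-shaped membrane. A ubiquitin-like conjugation system (Atg7, Atg3, Atg12, Atg5, Atg16l1) then attaches proteins of the Atg8 family to that membrane, and receptors such as Sqstm1 bring cargo to it. The closed vesicle fuses with the lysosome, where the V-ATPase, a rotary pump with a cytosolic V1 sector that splits ATP and a V0 sector in the membrane that carries protons, keeps the pH low enough for the cathepsins. Fasting is known to induce autophagy in many tissues, and in hypothalamic neurons autophagy is known to bear on food intake. All groups here were fasted, so the comparison is of restricted with unrestricted rats in the fasted state.

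Many of the lysosomal genes were lower after CR, and most of the early autophagy genes were not called. Of the 65 genes, 52 lay above the 50th percentile of mean log2 signal over all probe sets and were tested (limma on 4 CR arrays against 1 control array, Benjamini-Hochberg adjusted p under 0.05 over 15521 probe sets). Of these, 20 were lower in CR, 3 were higher and 29 were not called. The higher calls include *Atg7*, whose control signal cannot be told from absence. A gene without a call is not shown to be unchanged. The lower share was 38.5%, against 11.3% of the 9479 genes tested, and the higher share was 5.77%, against 11.6%. The median log2 difference, CR minus control, was -0.32 over the 52 genes and -0.02 over all genes tested. All 4 CR arrays lay below control in 29 of the 52 and above it in 12, against 35.9% and 33.3% of all genes. Genes of higher signal were more often lower (18.3% of the 5420 genes past the 75th percentile, with 14% higher and a median of -0.07), and many of these genes have a high signal. With the filter at the 75th percentile, 22 of 40 were lower and 2 higher. When limma's variance was not allowed to vary with signal (no intensity trend), 11 of the 52 were lower and 1 higher, against 6.48% and 11.2% of all probe sets. Array scaling bears on the split: centring each array on its median moved the median of all probe sets by -0.44, to -0.41, and then 33 of the 52 were lower and 0 higher, against 32.6% lower and 6.55% higher among all probe sets. Median scaling moves every gene by this same amount, so it leaves the distance between these genes and all others as it was.

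**Figure D1:**
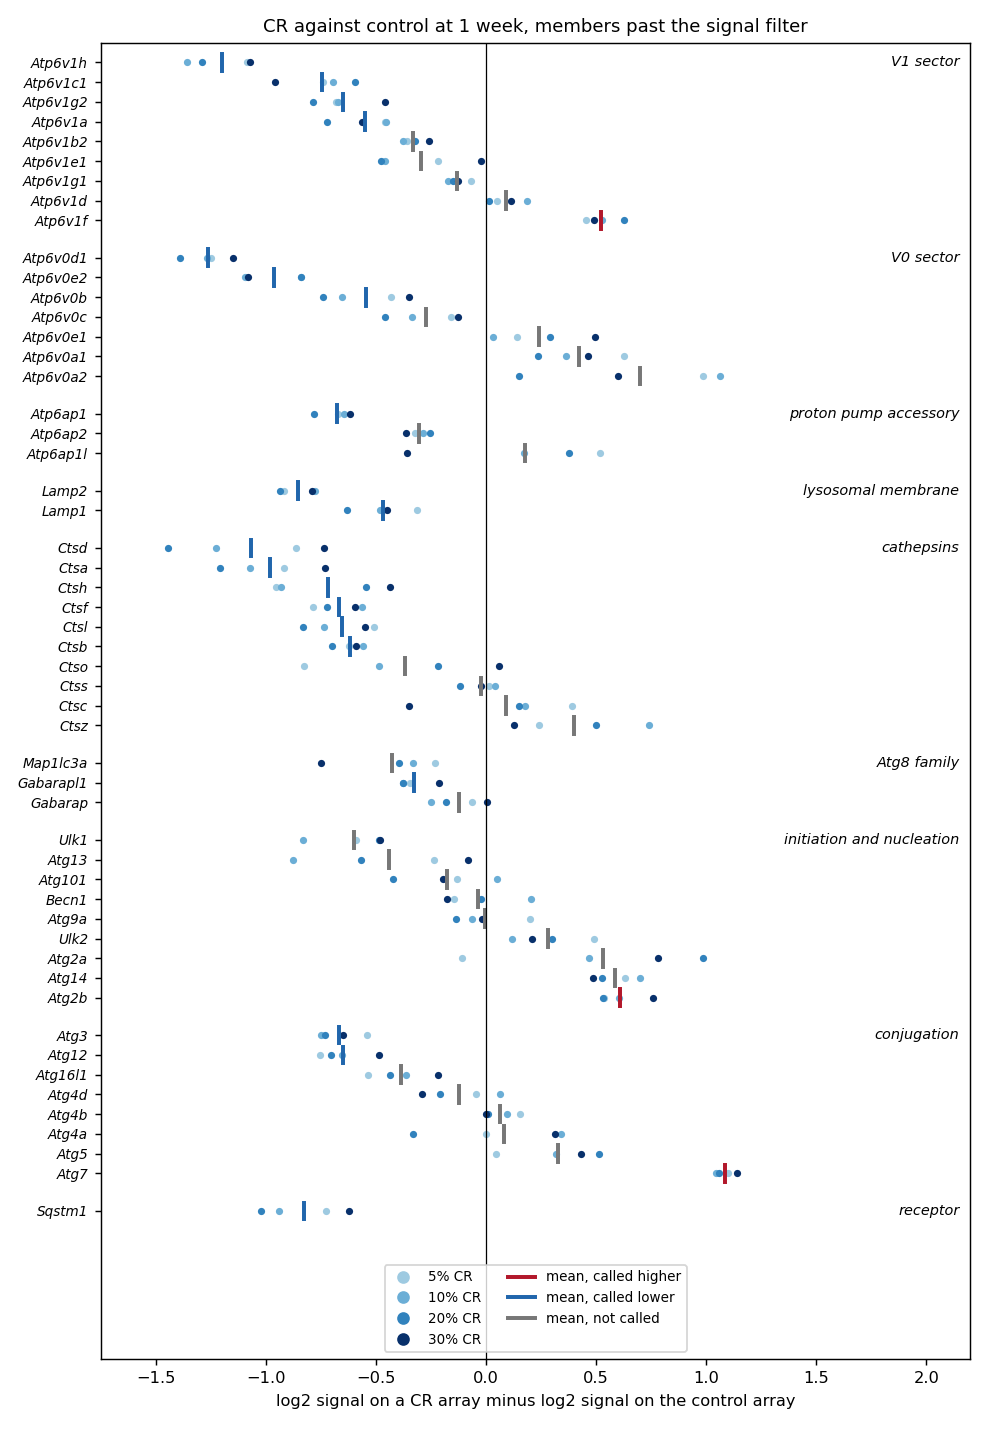
Log2 signal on each CR array minus log2 signal on the control array for the 52 genes past the signal filter, grouped by role. Points are the 4 CR levels and vertical bars their mean, coloured by call, and the cathepsin and Lamp rows lie mostly left of 0 while the initiation rows lie on both sides of it.

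**Figure D2:**
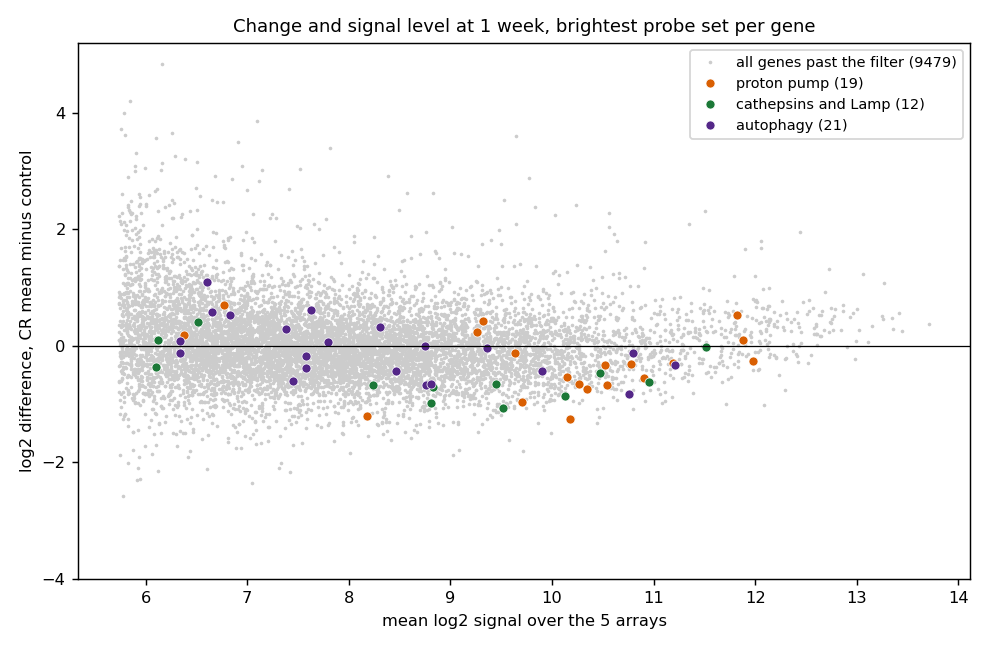
Mean log2 signal over the 5 arrays (horizontal) and the log2 difference, CR mean minus control (vertical), for the brightest probe set of each of 9479 genes. Grey points are all genes tested, and coloured points are the 19 proton pump, 12 cathepsin and Lamp, and 21 autophagy genes, most of which lie below 0 where the mean log2 signal is above 8.

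The control array stood apart from the others. Its log2 signals correlated at 0.85 to 0.87 with those of the CR arrays, which correlated at 0.91 to 0.92 with each other. Signals under 10 made up 11.7 to 14.4% of probe sets on the CR arrays and 24.0% on the control array. The log2 ratio of 3′ to 5′ control probe signal was 0.40 to 0.79 for GAPDH on the CR arrays against 0.19 on the control array, 2.19 to 2.80 against 1.90 for beta-actin, and 1.23 to 3.09 against 2.44 for hexokinase. With a single control array, the diet and whatever else is particular to that pool or array cannot be told apart, the p-values rest on the spread between single pools at different CR levels, and the control is assumed to vary as the CR arrays do. In tissue RNA, fewer cells of a type and less RNA per cell cannot be told apart either.

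The letters upstream of several of these genes are shown because many lysosomal genes carry a known control element. The palindrome CACGTG is the core of the site bound by Tfeb, Tfe3 and related factors, which switch on lysosomal genes, and TCACGTGA is a longer form of it. Windows from 250 bases before to 50 bases after the gene start (RefSeq, GRCr8) were found for 55 of the 65 genes. CACGTG lay in the window of 8 (14.5%), against 7.08% of 27457 genes. TCACGTGA, which contains it, lay in 5 (9.09%), against 0.896% of genes. GTCACGTG on either strand, which also contains it and can overlap TCACGTGA, lay in 6 (10.9%), against 2.09%. These are matches of letters in a window and no measure of binding. The 250 bases before the start of 4 genes that were lower in CR and hold TCACGTGA there follow, 5′ to 3′ on the gene's strand, with each CACGTG in capitals. *Ctsd* lies at chr1:206968822-206969071, *Lamp1* at chr16:83075064-83075313, *Atp6v0d1* at chr19:50357249-50357498 and *Atg3* at chr11:69159281-69159530, all on the minus strand.
Ctsd: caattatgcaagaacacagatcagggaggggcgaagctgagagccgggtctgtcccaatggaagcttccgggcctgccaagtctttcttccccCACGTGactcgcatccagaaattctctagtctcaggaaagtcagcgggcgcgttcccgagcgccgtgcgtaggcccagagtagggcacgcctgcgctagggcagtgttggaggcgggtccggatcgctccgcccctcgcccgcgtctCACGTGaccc
Lamp1: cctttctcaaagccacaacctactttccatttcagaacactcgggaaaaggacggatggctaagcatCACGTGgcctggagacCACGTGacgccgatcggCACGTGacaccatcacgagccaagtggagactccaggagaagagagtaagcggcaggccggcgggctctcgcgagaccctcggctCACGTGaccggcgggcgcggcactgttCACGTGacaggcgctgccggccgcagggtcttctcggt
Atp6v0d1: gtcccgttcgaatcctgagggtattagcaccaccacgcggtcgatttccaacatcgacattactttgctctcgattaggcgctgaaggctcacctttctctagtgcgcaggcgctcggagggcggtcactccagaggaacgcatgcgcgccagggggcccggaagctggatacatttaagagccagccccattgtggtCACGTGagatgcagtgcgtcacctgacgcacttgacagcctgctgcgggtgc
Atg3: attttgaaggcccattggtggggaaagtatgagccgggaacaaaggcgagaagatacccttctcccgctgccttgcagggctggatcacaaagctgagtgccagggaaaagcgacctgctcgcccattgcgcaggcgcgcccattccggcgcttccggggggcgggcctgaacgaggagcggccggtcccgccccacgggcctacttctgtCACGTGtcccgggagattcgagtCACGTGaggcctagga
*Lamp1* holds 5 copies, the nearest 38 bases before the start. *Ctsd* holds copies 157 and 10 bases before it, *Atg3* copies 39 and 16 bases before it, and *Atp6v0d1* 1 copy 52 bases before it. The other genes with CACGTG were *Atp6v0e1* and *Atg14*, where it lies after the start, and *Atg5* and *Ctsf*. *Atp6v0e1* also holds TCACGTGA and was not called (log2 difference 0.24). Of the 8 genes with CACGTG, all tested, 5 were lower in CR and 0 higher, with a median log2 difference of -0.57. Of the 36 tested genes whose window lacks it, 11 were lower and 3 higher, with a median of -0.22. Of all genes tested, 11.3% were lower and 11.6% higher, and the calls among all genes holding CACGTG were not counted. No test was made of the difference between genes with and without it.

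Of the V1 sector, 12 genes were on the array and 9 were tested. Of the 9, 4 fell in CR (44.4%, against 11.3% of all genes) and 1 rose (11.1%, near the 11.6% of all genes). Signals are given below for 5, 10, 20 and 30% CR, in that order, and errors are the SD of the log2 difference over the 4 CR arrays. *Atp6v1h*, a regulatory subunit that couples V1 to V0, had signals of 266.2, 220.3, 230.8 and 268.6 on the CR arrays, against 564.4 on the control array. All 4 CR arrays lay at less than 1 in 2 of the control signal, and the log2 difference was -1.20 ± 0.14 (n = 4, adjusted p = 0.00173). *Atp6v1c1*, a subunit of the stalk, gave 1181.4, 1219.2, 1305.2 and 1014.2 in CR, against 1971.6 in control (-0.75 ± 0.15, adjusted p = 0.00489). The brain form of the G subunit, *Atp6v1g2*, gave 1096.3, 1104.6, 1019.4 and 1279.1 in CR and 1759.8 in control (-0.65 ± 0.14, adjusted p = 0.00766). The catalytic subunit gene *Atp6v1a* gave 1889.9, 1894.8, 1571.5 and 1756.8 in CR and 2595.9 in control (-0.55 ± 0.13, adjusted p = 0.0118). In each of these 4 genes every CR array lay below control. Called genes were picked for description partly by that trait, which 35.9% of all genes tested had.

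*Atp6v1f*, a small subunit of the central rotor, went the other way. Its signals were 3710.0, 3905.5, 4180.9 and 3806.9 in CR, against 2709.6 in control, with no overlap (0.52 ± 0.07, adjusted p = 0.00543). After median scaling the difference was 0.09 (adjusted p = 0.553). *Atp6v1b2*, which pairs with the catalytic subunit and is the B form of neurons, gave 1372.6, 1354.6, 1406.0 and 1472.3 in CR and 1760.8 in control and missed the threshold (-0.33 ± 0.05, adjusted p = 0.0502). Without the 30% CR array its adjusted p was 0.0429. The remaining tested V1 genes, *Atp6v1e1*, *Atp6v1g1* and *Atp6v1d*, differed by -0.29, -0.13 and 0.09 log2, and none was called. Without the intensity trend in the variance, the calls of *Atp6v1g2*, *Atp6v1a* and *Atp6v1f* were lost (adjusted p = 0.0608, 0.0848 and 0.0719).

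In the V0 sector 3 of 7 tested genes fell (42.9%, against 11.3% of all genes) and none rose, where 11.6% of all genes did. *Atp6v0d1*, which joins the proton-carrying ring to the central stalk, had signals of 982.0, 971.2, 892.7 and 1053.6 in CR, against 2336.5 in control. Every CR array lay at less than 1 in 2 of the control signal (-1.26 ± 0.10, n = 4, adjusted p = 0.000269). *Atp6v0e2*, a small membrane subunit expressed in brain, gave 798.6, 668.4, 797.5 and 674.4 in CR and 1428.7 in control (-0.96 ± 0.14, adjusted p = 0.0017). For its paralog *Atp6v0e1* the values were 591.2, 548.3, 657.1 and 756.6 in CR and 536.9 in control, with a log2 difference of 0.24 ± 0.20 that was not called (adjusted p = 0.356). *Atp6v0b*, a subunit of the proton-carrying ring, gave 1139.7, 974.5, 917.6 and 1203.7 in CR and 1534.9 in control (-0.54 ± 0.18, adjusted p = 0.0311). That call was lost without the 10% CR array (adjusted p = 0.056), with quantile normalization (0.0638) and without the variance trend (0.123). *Atp6v0c*, the main ring subunit, gave 4192.2, 3716.4, 3405.7 and 4288.3 in CR and 4686.4 in control (-0.27 ± 0.16, adjusted p = 0.162). It was called lower after quantile normalization (-0.48) and cyclic loess (-0.42). It missed the threshold without the variance trend, with other filters and on leaving out each CR array in turn. Both tested forms of the large a subunit lay above control on all 4 CR arrays without a call, *Atp6v0a1* by 0.42 and *Atp6v0a2* by 0.70 log2.

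Among the accessory genes, *Atp6ap1*, an assembly factor of the pump, fell in CR. It gave 1360.8, 1386.5, 1259.5 and 1413.0 in CR, against 2165.5 in control (-0.68 ± 0.07, adjusted p = 0.00261). *Atp6ap2*, the prorenin receptor and a partner in V0 assembly, gave 1669.0, 1711.0, 1747.6 and 1619.5 in CR and 2084.9 in control (-0.31 ± 0.05, adjusted p = 0.0573). It passed the threshold with cyclic loess (-0.36) and with the filter at the 75th percentile. It missed the threshold with quantile normalization (-0.31), without the variance trend and on leaving out each CR array in turn (-0.29 to -0.32). *Atp6ap1l*, at low signals of 58.8 to 107.9 in CR and 75.4 in control, was not called. Of the 19 tested pump genes, 8 fell (42.1%, against 11.3% of all genes) and 1 rose (5.26%, against 11.6%). Summed signal over all 23 pump genes, tested or not, was 26581.4 to 28933.5 on the CR arrays, against 34020.2 on the control array.

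**Figure D3:**
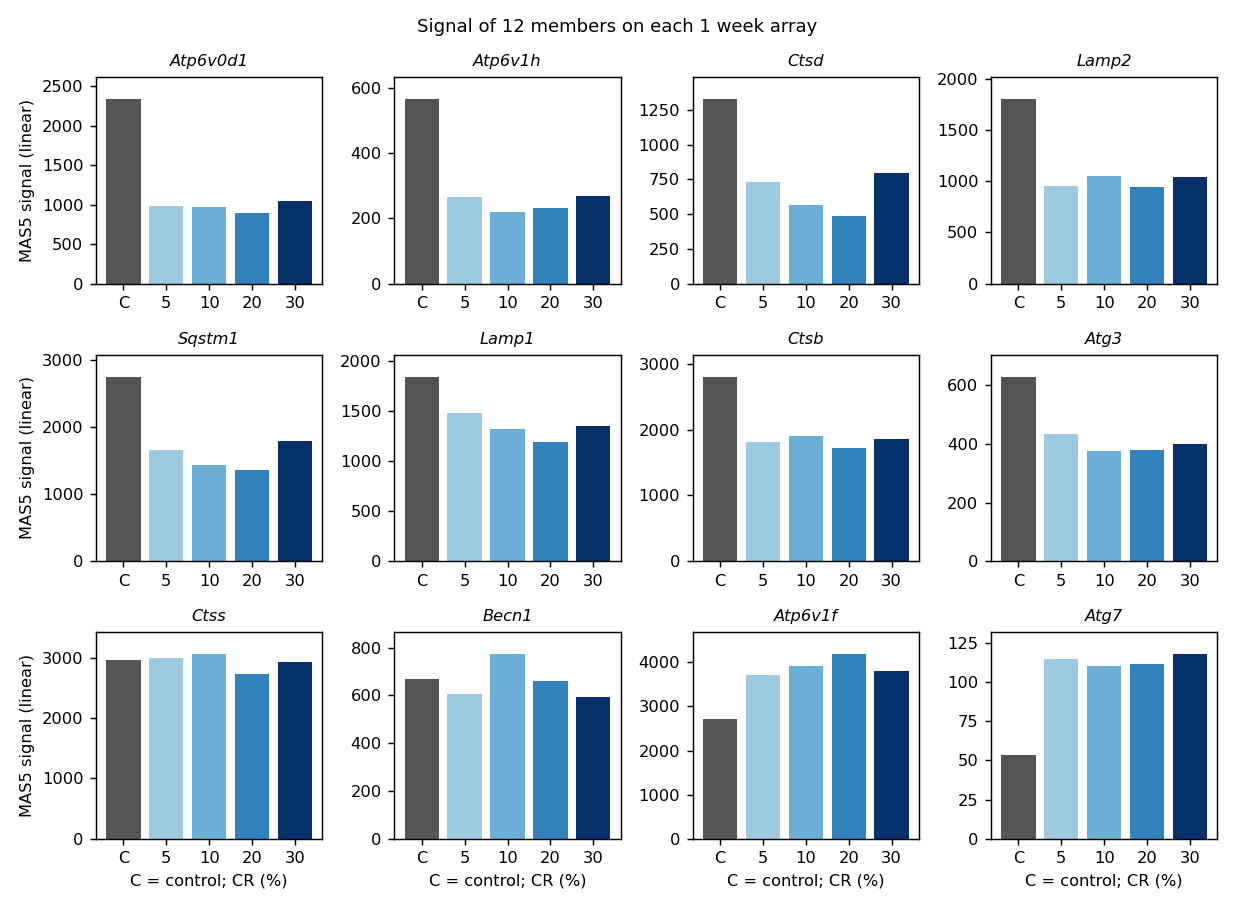
MAS5 signal on a linear scale for 12 genes on the control array (C) and at 5, 10, 20 and 30% CR for 1 week, 1 pool of 5 rats per bar and no error bar. *Atp6v0d1* and *Atp6v1h* show about the same drop at every CR level, *Ctsd* is lowest at 20% CR, *Ctss* and *Becn1* overlap control, and *Atp6v1f* and *Atg7* are higher at every level. The control signal of *Atg7* cannot be told from absence.

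The brightest probe sets of the lysosomal membrane genes *Lamp1* and *Lamp2* and of several cathepsin genes were lower in CR. *Lamp2*, which serves in membrane fusion and in chaperone-mediated autophagy, had signals of 953.0, 1050.0, 940.1 and 1041.4 in CR, against 1799.5 in control (-0.86 ± 0.08, n = 4, adjusted p = 0.00118). *Lamp1*, an abundant glycoprotein of the lysosomal membrane whose promoter is shown above, gave 1480.7, 1318.2, 1190.0 and 1349.3 in CR and 1842.7 in control (-0.47 ± 0.13, adjusted p = 0.027). Every CR array of these probe sets lay below control, as in 35.9% of all genes tested.

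Of 17 cathepsin genes 10 were tested, and 6 fell (60%, against 11.3% of all genes). None rose, where 11.6% of all genes did, and the median of the 10 was -0.64 log2. *Ctsd*, the main aspartic protease of the lysosome, gave 727.8, 566.0, 487.4 and 794.9 in CR, against 1325.5 in control (-1.07 ± 0.32, adjusted p = 0.00947). Its CR signals spread more widely than those of other called cathepsins and were lowest at 20%. *Ctsa*, a serine carboxypeptidase that also protects beta-galactosidase and neuraminidase, gave 409.0, 367.1, 334.5 and 464.8 in CR and 772.4 in control (-0.98 ± 0.20, adjusted p = 0.0048). The cysteine protease genes followed with smaller differences. *Ctsh*, an aminopeptidase, gave 349.1, 354.1, 463.8 and 499.0 in CR and 676.1 in control (-0.72 ± 0.26, adjusted p = 0.0345). *Ctsf* gave 253.6, 295.2, 264.9 and 288.9 in CR and 436.9 in control (-0.67 ± 0.10, adjusted p = 0.0181). *Ctsl* gave 706.9, 604.1, 565.2 and 687.6 in CR and 1005.2 in control (-0.66 ± 0.15, adjusted p = 0.0128). *Ctsb*, an abundant cysteine protease in brain, gave 1819.1, 1901.0, 1725.5 and 1859.5 in CR and 2802.0 in control (-0.62 ± 0.06, adjusted p = 0.00288). In all 6 of these genes the 4 CR arrays lay below control. Called genes outside the fixed set were picked for description partly by that trait, which 35.9% of all genes tested had.

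*Ctss*, a cysteine protease that in brain is made mostly by microglia, was not called. Its signals of 2997.0, 3057.9, 2734.3 and 2925.2 in CR surrounded the 2971.1 of control (-0.02 ± 0.07, adjusted p = 0.901). *Ctsc* and *Ctsz* differed by 0.09 and 0.40 log2, *Ctso* by -0.37, and none was called. The *Ctsh* call was lost without the 5% CR array (adjusted p = 0.0549), without the 10% CR array (0.056), with quantile normalization (0.0742) and with cyclic loess (0.0526). Without the variance trend *Ctsh*, *Ctsd*, *Ctsl* and *Lamp1* were not called (adjusted p = 0.106, 0.0591, 0.066 and 0.123).

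Of the 21 tested autophagy genes 4 were lower in CR (19%, against 11.3% of all genes) and 2 higher (9.52%, against 11.6%). *Sqstm1*, the cargo receptor p62 and itself degraded by autophagy, had signals of 1656.9, 1433.0, 1353.0 and 1783.3 in CR, against 2745.7 in control. It was well below control on every CR array (-0.83 ± 0.18, n = 4, adjusted p = 0.00409). Of the Atg8 family, *Gabarapl1* gave 2245.6, 2196.9, 2195.1 and 2458.5 in CR and 2850.7 in control (-0.33 ± 0.08, adjusted p = 0.0496). That call was lost without the 5, 10 or 20% CR array (adjusted p = 0.102, 0.0904 and 0.0763), without the filter on low signals (0.0584) and without the variance trend (0.201). *Gabarap* gave 1826.6, 1604.4, 1683.0 and 1910.0 in CR and 1906.8 in control, so that the 30% CR array reached the control value (-0.12 ± 0.11, adjusted p = 0.503). *Map1lc3a*, an LC3 gene, gave 1031.9, 963.5, 922.4 and 720.2 in CR and 1212.3 in control, all CR arrays lower but spread widely (-0.43 ± 0.23, adjusted p = 0.11). No probe set carries *Map1lc3b* or *Gabarapl2* as its single symbol, so these were not measured here.

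Of the 9 initiation and nucleation genes none fell and 1 rose (11.1%, near the 11.6% of all genes), with a median of -0.00. *Becn1*, the scaffold of the lipid kinase complex, gave 606.0, 772.2, 659.2 and 593.1 in CR, against 670.4 in control (-0.04 ± 0.17, adjusted p = 0.898). For *Ulk1*, the starting kinase, the signals were 161.4, 136.5, 173.9 and 174.2 in CR and 243.2 in control (-0.60 ± 0.17, adjusted p = 0.0757). Its paralog *Ulk2* gave 201.1, 155.4, 176.6 and 165.7 in CR and 143.3 in control (0.28 ± 0.16, adjusted p = 0.395). All CR arrays of *Ulk1* lay below control and all of *Ulk2* above it, and neither was called. *Atg9a*, the transmembrane protein of the seed vesicles, gave 497.1, 413.4, 393.4 and 427.0 in CR and 432.4 in control (-0.00 ± 0.15, adjusted p = 0.987). *Atg2b*, a lipid transfer protein that feeds the growing membrane, gave 204.3, 214.3, 203.2 and 238.0 in CR and 140.8 in control (0.61 ± 0.11, adjusted p = 0.048). Leaving out the 5, 10, 20 or 30% CR array each ended that call (adjusted p = 0.069, 0.0775, 0.061 and 0.0795), as did quantile normalization (0.059), the pseudocount (0.0506), the fit without a filter (0.0533) and the fit without the variance trend (0.0596), while median scaling gave 0.17 (0.562). *Atg14*, *Atg2a*, *Atg13* and *Atg101* differed by 0.59, 0.53, -0.44 and -0.18 log2 and were not called.

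In the conjugation system 2 genes of 8 tested fell (25%, against 11.3% of all genes) and 1 rose (12.5%, near the 11.6% of all genes). *Atg7*, the activating enzyme for both ubiquitin-like proteins, had low signals of 114.3, 110.3, 111.2 and 117.6 in CR, against 53.4 in control. The CR arrays differed little among themselves and none overlapped the control (1.09 ± 0.04, n = 4, adjusted p = 0.0167). The control signal is as low as those of genes below the filter and cannot be told from absence. Neither the size of the difference nor the higher call of *Atg7* is relied on. The difference was 0.65 after median scaling (adjusted p = 0.0926) and 0.79 after quantile normalization (0.0746), and not called in either. *Atg3*, the conjugating enzyme that acts after Atg7 and whose promoter is shown above, gave 433.0, 375.0, 378.6 and 401.4 in CR and 629.5 in control (-0.67 ± 0.10, adjusted p = 0.0108). *Atg12*, the ubiquitin-like protein joined to Atg5, gave 380.8, 407.8, 393.4 and 457.7 in CR and 641.3 in control (-0.65 ± 0.12, adjusted p = 0.0138), with 0.0539 without the variance trend. *Atg5* gave 273.1, 330.1, 377.4 and 356.6 in CR and 264.7 in control, all CR arrays higher but not called (0.33 ± 0.20, adjusted p = 0.26). *Atg16l1* differed by -0.39 log2, and the proteases *Atg4a*, *Atg4b* and *Atg4d*, which trim the Atg8 proteins, by 0.08, 0.07 and -0.12, all without a call.

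The 13 genes below the filter had signals of at most 80.7 on the CR arrays and 65.0 on the control array. They were *Atp6v1b1*, *Atp6v1c2*, *Atp6v1g3* and *Atp6v0a4*, pump forms known from kidney, *Ctse*, *Ctsk*, *Ctsw*, the placental cathepsins *Ctsj*, *Ctsm*, *Ctsq* and *Ctsr*, and *Atg10* and *Atg16l2*. Signals this low cannot be told from absent transcripts, and no change is given for them.

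Some genes with several probe sets gave different answers. In 14 pairs of a tested second probe set with the brightest, the second was over 1 log2 further down in 5 (35.7%, against 19.7% of 2354 such pairs over all genes) and over 1 log2 further up in 2 (14.3%, against 11%). The second probe set of *Atp6ap2* had signals of 87.5, 49.5, 96.3 and 105.7 in CR, against 848.5 in control (-3.38 ± 0.49 log2, adjusted p = 0.000438). The second of *Atp6v1b2* gave 229.0, 183.3, 181.5 and 239.6 in CR and 1226.6 in control (-2.57 ± 0.21, adjusted p = 0.000196). That of *Gabarapl1* gave 196.1, 151.8, 149.8 and 197.2 in CR and 915.7 in control (-2.41 ± 0.22, adjusted p = 0.000247). In these 3 genes the brightest probe set differed by -0.31, -0.33 and -0.33 log2. The CR signals of the second probe set of *Atp6ap2* reach as low as those of genes below the filter, so the size of its drop is uncertain. *Sqstm1* also had a second probe set with a deeper drop (-1.90). One of *Atg12* gave 49.6, 39.3, 26.8 and 57.8 in CR and 223.7 in control. Its CR signals were too low to be told from absence, so the size of its drop is not measured, though it is counted in the 5 pairs. Another one of *Atg12* gave -0.50 without a call.

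Other second probe sets pointed the other way from the brightest. That of *Lamp2* gave 685.4, 777.2, 1007.6 and 843.8 in CR and 621.5 in control, above control on every CR array though not called (0.40 ± 0.23, adjusted p = 0.145). For *Atp6v0b* the second gave 0.70 ± 0.80 and for *Atp6v1a* 0.02 ± 0.27, so the falls of *Lamp2*, *Atp6v0b* and *Atp6v1a* rest on 1 probe set each. The same holds for the fall of *Ctsl* (second probe set -0.20, not called) and the rise of *Atg2b* (second probe set -0.09, adjusted p = 0.858). Both probe sets of *Atg7* lay above control on every CR array (1.09, and 0.95 without a call), over control signals of 53.4 and 57.4 that cannot be told from absence. The second of *Atp6v0a2* gave 105.5, 87.1, 125.3 and 111.8 in CR, against a control signal of 49.6 that cannot be told from absence either. It passed the filter through the CR arrays, so neither its size nor its higher call is relied on. Where the probes lie on each transcript was not used here, and the part of the 3′ to 5′ ratios given above in these differences was not tested. With every tested probe set of these genes counted, 25 of 66 were lower and 4 higher, against 11% and 14.5% of all probe sets. The 4 include *Atg7* and the second probe set of *Atp6v0a2*, and the 25 include the probe set of *Atg12* whose drop has no measured size.

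**Figure D4:**
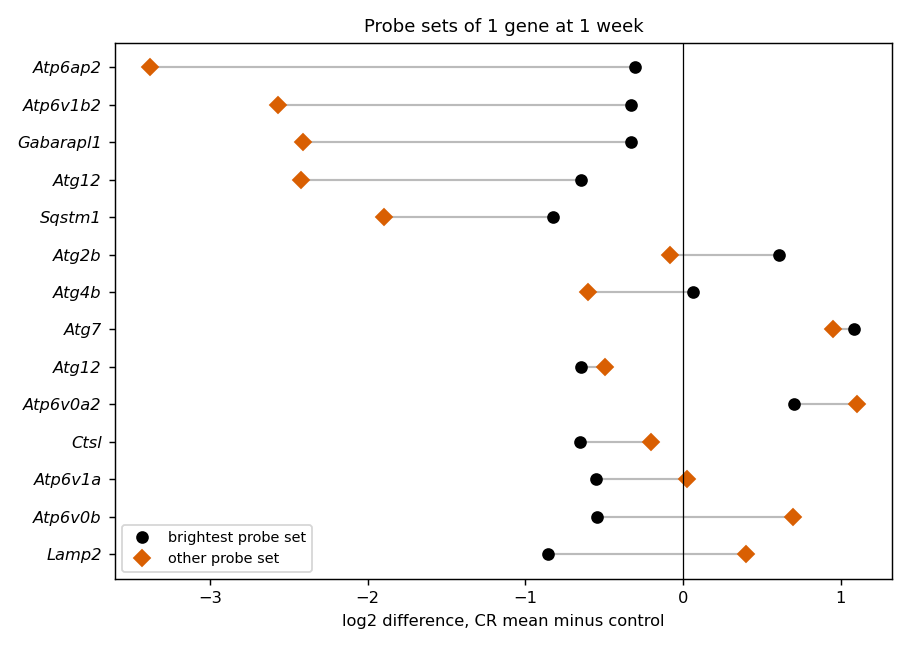
Log2 difference, CR mean minus control, for the brightest probe set of a gene (circles) and each other tested probe set of the same gene (diamonds), 14 pairs in all. The second of *Atp6v0a2* is drawn over a control signal that cannot be told from absence, and so are both of *Atg7*. The drops of the second of *Atp6ap2* and of the lower one of *Atg12* rest on low CR signals, so their size is uncertain. The second probe sets of *Atp6ap2*, *Atp6v1b2*, *Gabarapl1* and *Sqstm1* and 1 of 2 of *Atg12* lie at -1.90 or lower, the other of *Atg12* at -0.50, and those of *Lamp2* and *Atp6v0b* lie above 0 while the brightest lie below.

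The differences had no steady order over the 4 levels of restriction. The median log2 difference of the 52 genes was -0.23, -0.35, -0.39 and -0.24 at 5, 10, 20 and 30% CR, against -0.01, -0.03, -0.03 and 0.01 over all genes. These 4 values share the control array. At least 1.5-fold lower than control were 16, 17, 18 and 13 of the 52 genes, where 13.8, 15.9, 17 and 12.6% of all genes were, and at least 1.5-fold higher 4, 5, 3 and 4, where 16, 16.8, 17.4 and 15.3% were. At every level, 9 genes were past 1.5-fold lower (*Atp6v1h*, *Atp6v1c1*, *Atp6v0d1*, *Atp6v0e2*, *Atp6ap1*, *Lamp2*, *Ctsd*, *Ctsa* and *Sqstm1*) and 1 was past it higher (*Atg7*, over a control signal near background), against backgrounds of 6.19 and 8.88%. Past 2-fold at every level, 2 genes were lower (*Atp6v1h* and *Atp6v0d1*) and 1 was higher (*Atg7* again), against 1.26 and 3.25%.

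Within the CR arrays alone, which leaves the control array out, no gene had a slope over CR level by limma (0 of 52, and 0 of all 15521 probe sets). At an unadjusted p under 0.05 there were 4, against 4.35% of genes. These were *Atg2a* (0.35 log2 per 10 percentage points of CR, unadjusted p = 0.042), *Ctsh* (0.23, unadjusted p = 0.011), *Atp6v0e1* (0.17, unadjusted p = 0.034) and *Map1lc3a* (-0.19, unadjusted p = 0.012), each with an adjusted p of 1.0. *Ctso* (0.33) and *Atp6ap1l* (-0.28) had steep slopes at low signals, and *Ctso* gave 47.4, 60.0, 72.2 and 87.6 over the 4 levels against 84.1 in control. *Atg2a* likewise gave 78.8, 117.5, 168.6 and 146.0, against 85.1 in control, and *Atp6ap1l* 107.9, 85.1, 97.8 and 58.8, against 75.4.

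Other genes of the same organelles were counted from lists that leave out the 65 genes. Of 27 tested hydrolase genes 7 fell (25.9%, against 11.3% of all genes) and 1 rose (3.7%, against 11.6%), with a median of -0.09. *Lgmn*, the asparagine protease that processes cathepsins, had signals of 408.7, 372.4, 386.7 and 397.0 in CR, against 774.5 in control (-0.99 ± 0.06, adjusted p = 0.00131). *Psap*, the precursor of the saposins that help degrade sphingolipids, gave 1802.8, 1764.1, 1440.4 and 1834.9 in CR and 2992.9 in control (-0.81 ± 0.16, adjusted p = 0.00317). *Dpp7* (-0.98) and *Acp2* (-0.95), a dipeptidyl peptidase and the lysosomal acid phosphatase, fell too, and *Gm2a*, the activator of ganglioside degradation, rose (0.64, adjusted p = 0.0177).

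Of 19 tested genes for lysosomal membrane and delivery 5 fell (26.3%, against 11.3% of all genes). Of the same 19, 2 rose (10.5%, near the 11.6% of all genes). *Laptm4a*, a lysosomal membrane protein, gave 1282.3, 1210.8, 999.4 and 1307.2 in CR and 2795.8 in control (-1.23 ± 0.18, adjusted p = 0.000662). *M6pr*, a receptor that carries newly made hydrolases, gave 455.0, 429.8, 539.5 and 520.6 in CR and 995.3 in control (-1.04 ± 0.16, adjusted p = 0.00185). *Laptm4b* (-0.78) and *Gnptg* (-0.68) also fell. *Gnptg* and *Gnptab* code for subunits of the same enzyme, which tags hydrolases with mannose 6-phosphate, and *Gnptab* rose (1.24, adjusted p = 0.00153), as did the sialic acid exporter *Slc17a5* (0.72).

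Of 32 further autophagy genes 4 fell and 2 rose, a lower share of 12.5% that is near the 11.3% of all genes. The higher share was 6.25%, against 11.6%. Those that fell were *Vmp1* (-0.96) in membrane growth, the mitophagy genes *Pink1* (-0.88) and *Bnip3* (-0.53), and the receptor *Tax1bp1* (-0.68), while *Vps11* (0.46) in vesicle tethering and the receptor *Optn* (0.43) rose. Of 17 tested regulators of lysosome and autophagy genes none fell, where 11.3% of all genes did, and 3 rose (17.6%, against 11.6% of all genes), with a median of 0.31. Counts this small do not set the regulators apart from other genes. *Tfe3*, one of the factors that bind CACGTG, gave 239.1, 227.6, 220.9 and 222.8 in CR and 143.2 in control (0.67 ± 0.05, adjusted p = 0.0259). *Lamtor5* (0.49) and *Lamtor2* (0.32, close to the threshold), parts of the complex that holds mTOR at the lysosome, rose as well. Median scaling moves every gene by -0.44. The rises of *Lamtor5*, *Lamtor2*, *Vps11* and *Optn* are near that size, so they depend on the scaling.

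**Figure D5:**
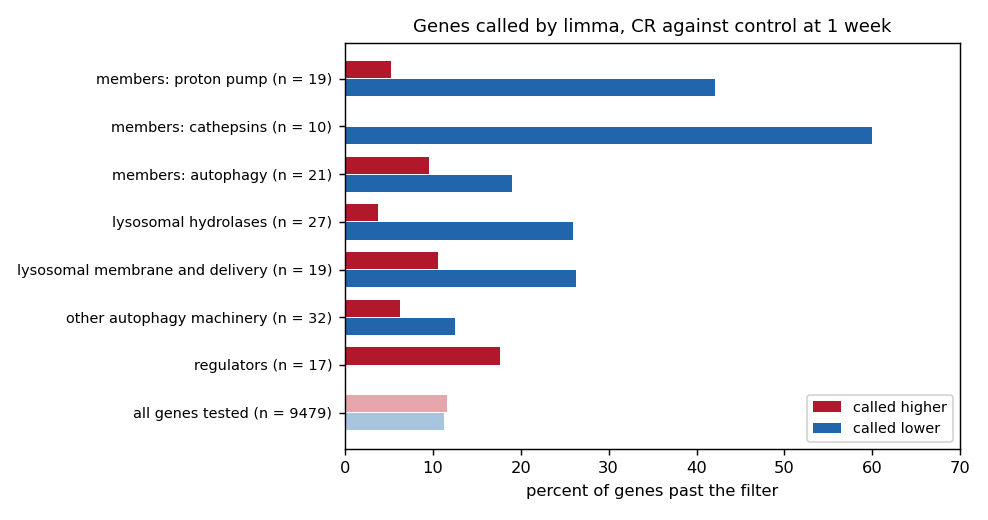
Percent of tested genes called higher or lower in CR by limma, for parts of the 65 genes, for 4 other lists and for all 9479 genes tested (pale bars). Lower calls reach 60% of cathepsins and 42.1% of proton pump genes, against 11.3% of all genes. Cell type markers are not drawn.

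Markers of other cell types did not all move with these genes. Sums below take in every marker on the array, those below the filter included. Of all genes tested, 11.3% were lower and 11.6% higher. Of 8 tested microglia markers 1 was higher in CR (*Tyrobp*, 0.92), a share of 12.5%, and none lower. The summed signal of 11 microglia markers was 2376.6 to 2595.1 in CR against 2501.7 in control. Of these, *Itgam*, *Cx3cr1* and *Trem2* were below the filter. Of 9 oligodendrocyte markers 4 were lower (*Mog*, *Mal*, *Ugt8* and *Opalin*) and none higher. That lower share of 44.4% is near the 42.1% of the tested pump genes, and the median was -0.30 log2. *Mog* was at -1.35 log2, and the marker sum was 23752.8 to 25805.6 in CR against 26028.3 in control. Astrocyte markers summed to 28948.0 to 30074.2 in CR against 30907.3 in control (2 of 8 tested lower, 25%, and 1 higher, 12.5%). Endothelial markers summed to 1936.4 to 2180.7 against 2188.7 (1 of 7 lower and 1 higher, 14.3% each). General neuron markers summed to 14915.6 to 16309.3 against 15891.2 (2 of 8 tested lower and 2 higher, 25% each). Hypothalamic neuron markers summed to 32632.0 to 35074.9 in CR against 28269.6 in control (4 of 14 tested higher, 28.6%, and 1 lower, 7.14%). The pituitary hormone subunit genes *Cga*, *Tshb* and *Lhb* were all higher in CR, with a marker sum of 2056.7 to 2866.8 against 992.9 in control, while *Gh1*, *Prl*, *Pomc* and *Pou1f1* were below the filter. The sum of 5 choroid plexus markers was 282.3 to 385.6 in CR against 161.7 in control. Only 2 of the 5 were tested, and 1 was called higher. The part of these cell types in the changes of the lysosome and autophagy genes was not tested.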

How the data were processed

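Brain RNA of male Wistar rats was hybridised to Affymetrix Rat Genome arrays, 1 array per pool of 5 rats. The authors deposited linear MAS5 intensity values, 1 per probe set and array. MAS5 subtracts mismatch probe signal and scales each array, so that the 2% trimmed mean was 158.8 on all 5 arrays used, and low signals are noisy on a log scale. The 1 month arrays were not used, because their rows did not follow the probe set identifiers (log2 correlation with the 1 week arrays 0.036 to 0.052). Genes were named from the platform annotation where a probe set has a single symbol (436 probe sets have several and 9831 none).

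Values were log2 transformed with no pseudocount (4 zeros were replaced by 0.1). The upper part of all probe sets, past the 50th percentile of mean log2 signal (15521, 57 controls left out), was fitted with limma 3.58.1 in R 4.3.3 (lmFit, and eBayes with an intensity trend), 4 CR arrays against 1 control array with 3 residual degrees of freedom, and with the slope over CR level on the 4 CR arrays with 2. p-values were adjusted by Benjamini-Hochberg at 0.05. The fits were tested on simulated data. Adjusted p is given for the whole table. Alternatives were 3 other scalings, other filters, a pseudocount of 13.7, other variance moderation, each CR array left out, and every probe set in place of the brightest.

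The members and lists were chosen with earlier results of these data known. Genes described with all their signals were, in each role, up to 5 called per direction with all CR arrays on 1 side of control, a fixed set of 26 genes, the 3 steepest slopes and, in other lists, up to 4 called per direction. Second probe sets were described after their values were seen where they differed from the brightest. Python 3.11.15 was used for summaries and figures.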

Additional observations from a re-analysis of the deposited data

How the results depend on the processing

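The 52 genes gave 20 lower and 3 higher calls. Median scaling gave 33 lower and 0 higher, and 25 lower and 0 higher past 1.5-fold at every level. eBayes without trend gave 11 lower and 1 higher. As deposited, 9 genes were past 1.5-fold lower at every level and 2 past 2-fold, against 6.19 and 1.26% of all genes. *Atg7* alone was past both limits higher, over a control signal near background, against 8.88 and 3.25%. *Atg7* is also 1 of the 3 higher calls. Leaving out each CR array in turn gave 17 to 21 lower and 2 to 3 higher, and the slope over CR level gave 0 calls in every alternative run, control added as 0% included. Counting every tested probe set of these genes gave 25 lower and 4 higher of 66, with the second probe set of *Atp6v0a2* among the 4. The other alternatives gave 19 to 22 lower and 2 to 3 higher calls. No paired analysis was possible because there is 1 control array and the labels give no replicate numbers.

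Uncalled genes changed sign in some settings. Median scaling moves every gene by -0.44, which by itself put *Atp6ap1l*, *Ulk2* and *Atg5* at -0.26, -0.16 and -0.11. *Atp6ap1l* was at -0.013 with quantile normalization and -0.080 with cyclic loess. *Becn1* was at 0.070 with quantile normalization and 0.012 with cyclic loess, and *Atg9a* at 0.087 and 0.069. Leaving out each CR array in turn gave -0.12 to 0.011 for *Becn1*, -0.073 to 0.039 for *Atg9a* and -0.043 to 0.011 for *Ctss*. The cause of the changes outside median scaling was not tested. The shift of median scaling also brought lower calls for *Ctss*, *Becn1*, *Map1lc3a*, *Gabarap*, *Ulk1*, *Atp6v0c*, *Atp6v1b2* and *Atp6ap2*. Precision is limited by 1 pool per CR level and 1 control pool, and by signals near background in the 13 genes not tested.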
